A study of Mus musculus with 9 samples.

Results

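The genes described here are 30 genes of sterol synthesis, uptake and efflux, chosen by symbol as members of the SREBP2 and LXR programmes and measured in mouse CT26 cells. They are 30 of the 53796 genes in the expression table, chosen with earlier results of these data known. Of these, 28 had a mean of at least 1 FPKM (fragments per kilobase of transcript, scaled by library size) over the 9 samples and were tested together with all other such genes, 12212 in all. The 2 members that were not tested are Mvd and Abcg1. The list holds the enzymes that make cholesterol, the proteins that switch them on, proteins that move and store sterols, and genes of the liver X receptors (LXR). It holds no lipoprotein receptor, so that uptake is represented only by Mylip.

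CT26 is a mouse colorectal carcinoma line. Per the labels, its Pd-l1 gene (symbol Cd274), which encodes a ligand of PD-1, a receptor on T cells, had been knocked out in all samples. The knockout cells were then infected with retrovirus and selected with puromycin as stable polyclonal lines. The vector was a control vector (KO, 3 samples), carried wild-type mouse Pd-l1 (WT, 3 samples), or carried Pd-l1 with the K262Q substitution, lysine to glutamine (K262Q, 3 samples). All groups therefore share the knockout, the infection and the selection, and unmodified CT26 cells are not among them. Each group is 1 selected line, and nothing in the labels says that its 3 samples came from separate cultures. The p-values thus rest on the spread among these samples alone, and that spread could be technical. In bulk RNA a lower level per cell and a smaller share of cells with the transcript cannot be told apart.

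Cells make cholesterol from acetyl-CoA through mevalonate, farnesyl diphosphate, squalene and lanosterol. When membranes of the endoplasmic reticulum run low in sterol, SCAP escorts the transcription factor SREBP2 (gene Srebf2) to the Golgi, where it is cut and released to the nucleus, and it then switches on most of the pathway's enzymes with the help of the factors NF-Y and Sp1. When sterol is plentiful the INSIG proteins hold SCAP back, and oxysterols and sterol intermediates activate LXR, which raises the exporters ABCA1 and ABCG1 and the ubiquitin ligase MYLIP, which marks lipoprotein receptors for breakdown.

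The targeted gene Cd274 was at 0.982, 0.357 and 0.791 FPKM in the KO samples, 35.6, 35.4 and 38.0 in the WT samples and 37.6, 41.3 and 40.1 in the K262Q samples. The depth implied by the steps between low values was 17.72 to 18.96 M fragments a library (M, 1e6). A transcript of 2000 nt at 1 FPKM then rests on 35.4 to 37.9 fragments, with a counting SD of 16.2% to 16.8%, for counting error only. Total FPKM was 719525 to 741873 in K262Q, above the 651954 to 678848 of WT and the 665332 to 710318 of KO. Of 8 epithelial markers only Krt18 and Krt20 had a mean of at least 1 FPKM, while Epcam stayed near 0 and Cdh1 was at 0 in all 9 libraries. The summed epithelial level was 40.0 to 41.6 FPKM in K262Q, 43.3 to 44.9 in WT and 47.4 to 50.04 in KO, and all 4 fibroblast markers had a mean of at least 1 FPKM over the 9 libraries. Of the leukocyte markers only Cd68 was above 1 FPKM, and endothelial and erythroid sums stayed below 1 FPKM. The part of the marker sums and of total FPKM in the sterol results was not tested.

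In K262Q against WT 12 of 17 tested enzymes of sterol synthesis rose, and the efflux pump Abca1 fell. Of the 28 members tested 14 rose and 1 fell at an adjusted p under 0.05 (limma on log2(FPKM + 1), Benjamini-Hochberg over 12212 genes), and 13 did not pass. Over all genes tested 6.35% were called higher and 3.02% lower. The members were chosen with earlier results of these data known, so such shares are no independent measure of how unusual the members are. None of the synthesis enzymes fell, and all 17 fold changes were above 0, against 56% of all genes. Pmvk, Idi1, Lss, Cyp51 and Dhcr7 are the 5 that did not pass. All 3 K262Q samples were above all 3 WT samples for 16 of those 17 enzymes, Pmvk being the exception, and for 20 of the 28 members. Over all genes 22% separated in that way and 13.4% in the opposite way. The median difference was 0.38 on the log2 scale for the synthesis enzymes and 0.34 for all 28 members, against 0.03 for all genes tested. The sizes were modest, with no tested member past a 1.62-fold rise or a 1.38-fold fall. Folds are those of the fit, on FPKM + 1, which understates changes of low genes. With upper-quartile scaling 12 members rose and 2 fell, while over all genes the calls went from 776 higher and 369 lower to 404 higher and 527 lower. Median-of-ratios scaling also gave 12 and 2, with 602 higher and 463 lower over all genes. With no filter on low values, where 27379 genes were tested, 4 members rose and 1 fell. Of all those genes 0.972% were called higher and 0.318% lower. The count of members called higher was not stable and fell when any 1 WT or K262Q library was left out. Leaving out 1 of the WT replicates 1, 2 and 3 gave 1, 1 and 6 members, in that order, and leaving out 1 of the K262Q replicates 1, 2 and 3 gave 5, 0 and 1. The share of all genes called higher fell with it, to 0.197%, 0.197%, 2.35%, 2.1%, 0.131% and 0.221% in the same order, while the median difference of the 28 members stayed between 0.32 and 0.37.

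**Figure D1:**
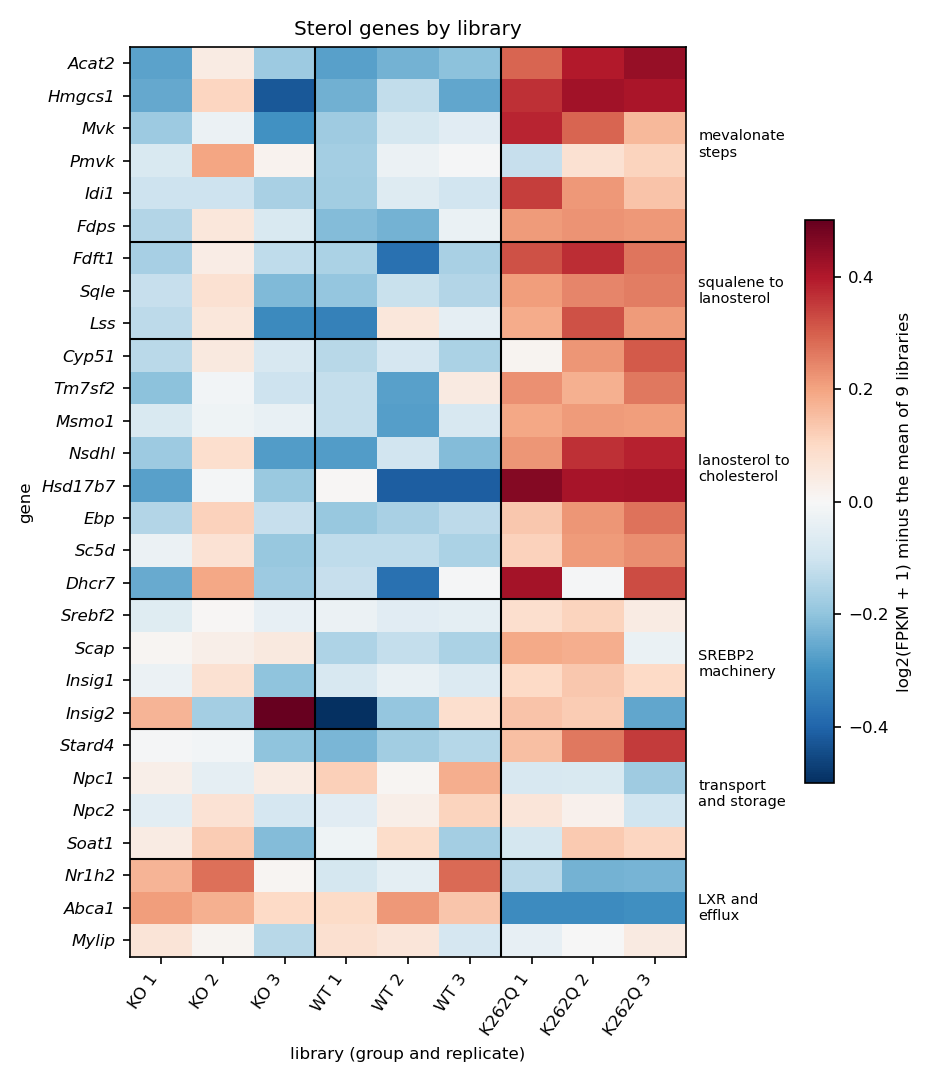
Level of each of the 28 tested members in each of the 9 libraries, as the difference from the gene's mean over all libraries on the log2(FPKM + 1) scale, with genes in rows by role and libraries in columns by group. The colour scale ends at 0.5 on either side. The 17 synthesis enzymes are mostly higher in the 3 K262Q libraries, with library medians of 0.22, 0.22 and 0.26, and Abca1 is lower there.

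**Figure D2:**
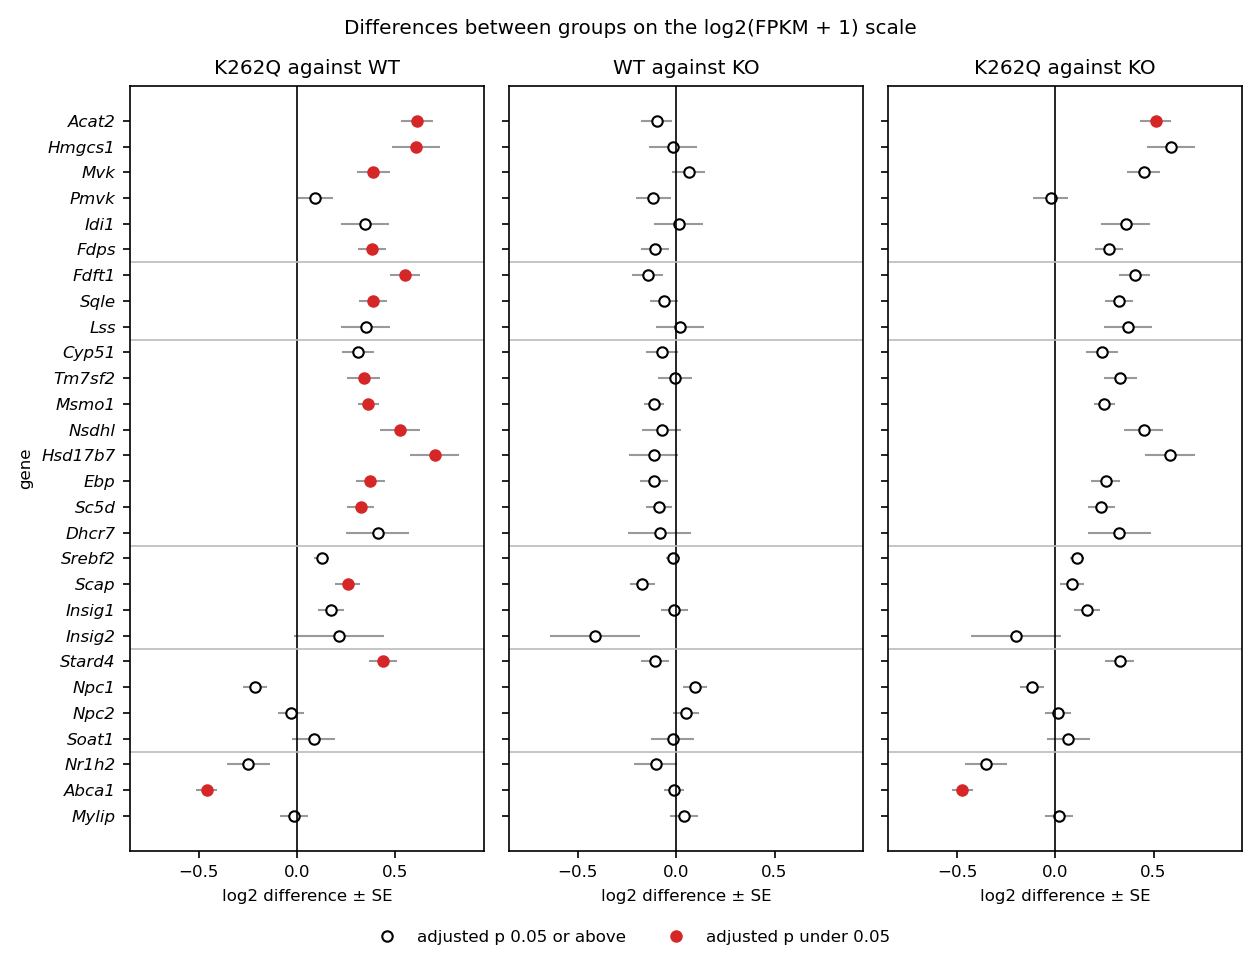
Difference in log2(FPKM + 1) with its SE for each tested member in the 3 comparisons, in rows by role; filled points passed an adjusted p of 0.05. In K262Q against WT 15 points are filled, in WT against KO 0 and in K262Q against KO 2, Acat2 and Abca1.

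The first steps run from acetyl-CoA to farnesyl diphosphate, and 4 of the 6 of their enzymes that were tested rose in K262Q against WT, with a median difference of 0.38. Acat2, which joins acetyl-CoA units into acetoacetyl-CoA, was at 21.3, 21.9 and 22.3 FPKM in WT, 31.9, 34.4 and 35.4 in K262Q and 21.3, 26.7 and 22.7 in KO. The 3 K262Q samples stood above all 6 others. The rise over WT was 1.53-fold (0.61 ± 0.08 SE, n = 3 a group, limma adjusted p = 0.016). Part of its transcript matches another gene, since 445 nt are 98.7% identical to Tcp1, a chaperonin gene that rose as well, from 434.5 ± 10.0 to 533 ± 35.5 FPKM (SD, n = 3, limma adjusted p = 0.0421). How reads of that stretch were divided is not given in the sources used here, so the size of the Acat2 rise is uncertain.

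Hmgcs1, the synthase that makes HMG-CoA and a standard SREBP2 target, was at 45.5, 49.4 and 44.9 FPKM in WT, 69.8, 72.6 and 71.9 in K262Q and 45.0, 58.2 and 40.0 in KO. Every K262Q sample exceeded every other sample, and KO replicate 2 was the highest of the rest. The rise over WT was 1.52-fold (0.61 ± 0.12 SE, n = 3, limma adjusted p = 0.0294). Mvk, mevalonate kinase, was at 21.4, 22.9 and 23.4 FPKM in WT, 32.0, 29.999 and 27.4 in K262Q and 21.4, 23.8 and 19.5 in KO. All 3 K262Q samples were above the 6 others, and WT and KO overlapped. It rose 1.31-fold over WT (0.39 ± 0.08 SE, n = 3, limma adjusted p = 0.036). Fdps, which makes farnesyl diphosphate and is among the 3 most abundant members per transcript length, rose from 139 ± 11.2 to 180.5 ± 0.76 FPKM (SD, n = 3, 1.30-fold, limma adjusted p = 0.0249).

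The other enzymes of this stretch did not pass. Pmvk, phosphomevalonate kinase, was at 47.1 to 53.0 FPKM in WT and 49.0 to 57.5 in K262Q (0.09 ± 0.09 SE, n = 3, limma adjusted p = 0.552), and its groups overlapped. Idi1, the isopentenyl diphosphate isomerase, is at low level, with 1.15 to 1.31 FPKM in WT and 1.67 to 2.07 in K262Q. Its groups separated, with a ratio of means of 1.49 and a fitted difference of 0.35 ± 0.12 (SE, n = 3, limma adjusted p = 0.12). Over 684 nt Idi1 is 100% identical to Gm13502, at 0.05 FPKM on average, and how those reads were divided is not given. Mvd, the mevalonate diphosphate decarboxylase, is listed at 0 in all 9 libraries. The table gives it a locus, from 119910359 to 124345724 on chromosome 8, that is shared by 210 genes, Mvd included. All of them are listed at 0 in every library, among them Rpl13 and Cox4i1, which all cells use. The zeros of Mvd are therefore no measure of its expression.

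The upstream sequence of Hmgcs1 is shown because it was the only member window that held the sterol response element in the form searched. It is the 250 bases before the start of the RefSeq transcript, at chr13:119690101-119690350 of GRCm38.p6 on the plus strand, 5′ to 3′. Capitals mark the NF-Y box, which reads ATTGG on this strand, and the core TCACCCCAC of the sterol response element at positions -137 to -129 from the start.
Hmgcs1: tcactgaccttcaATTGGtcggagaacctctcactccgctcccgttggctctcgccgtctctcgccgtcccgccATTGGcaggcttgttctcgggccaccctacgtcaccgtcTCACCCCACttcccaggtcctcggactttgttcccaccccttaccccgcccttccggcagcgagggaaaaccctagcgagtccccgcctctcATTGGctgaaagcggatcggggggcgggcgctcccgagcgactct

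From farnesyl diphosphate to lanosterol, 2 of 3 enzymes rose. Fdft1, squalene synthase, commits farnesyl diphosphate to sterols. It was at 23.3, 19.96 and 23.3 FPKM in WT, 32.8, 34.0 and 31.7 in K262Q and 23.2, 26.8 and 23.9 in KO. The K262Q samples lay well clear of the other 6, which overlapped each other. The rise over WT was 1.46-fold (0.55 ± 0.08 SE, n = 3, limma adjusted p = 0.016). Fdft1 shares 774 nt with Ctsb, a protease gene on the opposite strand at 226 FPKM on average, whose own difference was 0.07 ± 0.05 (SE, limma adjusted p = 0.419). Whether reads were counted by strand is not given in the sources used here.

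Sqle, squalene monooxygenase and a rate-limiting enzyme of the late pathway, was at 76.2, 80.7 and 78.7 FPKM in WT, 101, 103 and 104 in K262Q and 80.4, 92.0 and 74.8 in KO. Again the K262Q samples were highest, followed by KO replicate 2. It rose 1.31-fold over WT (0.39 ± 0.07 SE, n = 3, limma adjusted p = 0.025). Lss, which closes squalene epoxide to lanosterol, was at 43.1 to 56.9 FPKM in WT and 62.3 to 68.4 in K262Q, groups that did not overlap, but did not pass (0.35 ± 0.12 SE, n = 3, limma adjusted p = 0.114).

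In the steps from lanosterol to cholesterol 6 of 8 enzymes rose, with a median difference of 0.37. Hsd17b7, the reductase of the C-4 demethylation complex, had the largest difference of any member. It was at 4.65, 3.23 and 3.23 FPKM in WT, 6.72, 6.48 and 6.49 in K262Q and 3.66, 4.58 and 3.94 in KO. The K262Q samples were close together and above all 6 others, while WT replicate 1 stood above its 2 companions. The rise over WT was 1.62-fold on the fitted scale (0.70 ± 0.13 SE, n = 3, limma adjusted p = 0.0236) and 1.77-fold as a ratio of means.

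Nsdhl, the dehydrogenase of the same demethylation complex, was at 36.3, 41.4 and 37.9 FPKM in WT, 51.8, 57.4 and 58.1 in K262Q and 39.0, 47.1 and 36.3 in KO. The K262Q samples did not overlap with any other. It rose 1.44-fold (0.52 ± 0.10 SE, n = 3, limma adjusted p = 0.0266). Ebp, the sterol isomerase, was at 43.9, 44.8 and 45.8 FPKM in WT, 55.3, 58.7 and 60.8 in K262Q and 45.3, 54.5 and 46.3 in KO. Its K262Q samples were highest, with KO replicate 2 just below the lowest of them. It rose 1.29-fold (0.37 ± 0.07 SE, n = 3, limma adjusted p = 0.029).

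The oxidase Msmo1, the first enzyme of C-4 demethylation, was the most abundant member per transcript length and rose from 162 ± 11.4 to 208 ± 1.55 FPKM (SD, n = 3, 1.29-fold, limma adjusted p = 0.0166). Over 203 nt Msmo1 is 96.1% identical to Taf1d, at 111 FPKM on average. Over 202 nt it is 97.5% identical to Zmynd8, whose own difference was 0.21 ± 0.05 (SE, limma adjusted p = 0.0442). Other genes match it over stretches of such length as well, and how these reads were divided is not given. Sc5d, the lathosterol oxidase, rose from 66.3 ± 0.788 to 83.2 ± 3.59 FPKM (SD, n = 3, 1.25-fold, limma adjusted p = 0.0328). Tm7sf2, a sterol reductase, rose from 20.8 ± 2.38 to 26.4 ± 0.805 FPKM (SD, n = 3, 1.26-fold, limma adjusted p = 0.0482). That call was kept in 3 of 9 other settings and in 2 of 9 fits with 1 library left out, and the gene shares exon sequence on the same strand with Vps51, whose difference was 0.26 ± 0.10 (SE, limma adjusted p = 0.134). Cyp51, the lanosterol demethylase, had a mean of 132 ± 3.51 FPKM in WT against 165 ± 16.9 in K262Q (SD, n = 3, limma adjusted p = 0.0539). It shares exon sequence with Akap9, a gene on the opposite strand at 22.7 FPKM on average. The difference of Akap9 was -0.20 ± 0.09 (SE, limma adjusted p = 0.194). Dhcr7, which makes cholesterol from its last precursor in this branch, was at 40.2 to 52.1 FPKM in WT and 52.1 to 70.2 in K262Q (0.41 ± 0.16 SE, n = 3, limma adjusted p = 0.143). The lowest K262Q sample of Dhcr7 was barely above the highest WT sample.

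The upstream sequences of Hsd17b7 and Nsdhl are shown as the enzymes of this stretch with the largest rises. They are the 250 bases before the RefSeq start in GRCm38.p6, at chr1:169969206-169969455 on the minus strand for Hsd17b7 and chrX:72918271-72918520 on the plus strand for Nsdhl, 5′ to 3′. Capitals mark the NF-Y box, which reads ATTGG on this strand, and the boxes nearest the start begin at -12 and -20.
Hsd17b7: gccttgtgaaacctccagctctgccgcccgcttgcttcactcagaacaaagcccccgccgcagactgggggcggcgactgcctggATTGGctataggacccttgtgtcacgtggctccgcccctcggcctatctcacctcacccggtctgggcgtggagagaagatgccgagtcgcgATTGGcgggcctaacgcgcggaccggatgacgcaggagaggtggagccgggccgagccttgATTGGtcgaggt
Nsdhl: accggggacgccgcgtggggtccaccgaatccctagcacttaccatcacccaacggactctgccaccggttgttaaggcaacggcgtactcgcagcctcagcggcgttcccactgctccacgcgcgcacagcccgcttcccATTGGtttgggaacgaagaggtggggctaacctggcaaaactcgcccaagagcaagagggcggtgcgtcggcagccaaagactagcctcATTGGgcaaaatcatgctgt

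**Figure D3:**
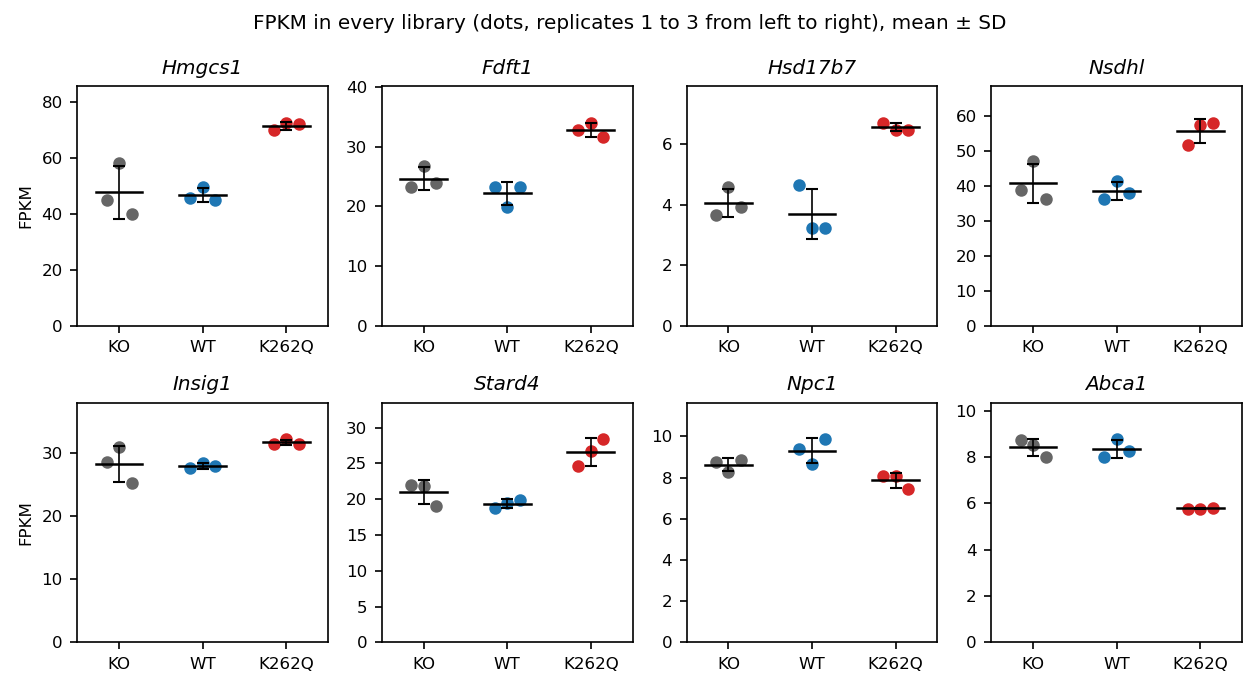
FPKM of 8 members in each of the 9 samples, 1 panel a gene, with points for samples, a line for the group mean and error bars of 1 SD. For Hmgcs1, Fdft1, Hsd17b7, Nsdhl and Stard4 the 3 K262Q points lie above the 6 others, and for Abca1 they lie below, at 5.78 to 5.81 FPKM against 8.003 to 8.78.

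Of the 4 regulators of SREBP2 1 passed, with a median difference of 0.19. Srebf2, which encodes SREBP2 itself, was at 86.1, 84.4 and 85.0 FPKM in WT, 93.3, 94.99 and 90.5 in K262Q and 84.4, 88.4 and 85.4 in KO. The K262Q samples were above all others, but by little, at 0.12 ± 0.04 over WT (SE, n = 3, limma adjusted p = 0.0705). With upper-quartile scaling the difference was 0.06 (limma adjusted p = 0.300), and with median-of-ratios scaling 0.09 (adjusted p = 0.144). Srebf2 was called in 1 of 9 other settings and in 1 of 9 fits with 1 library left out. Scap, its escort protein, was at 30.1, 30.8 and 29.96 FPKM in WT, 38.4, 38.1 and 32.8 in K262Q and 33.7, 34.2 and 34.7 in KO. WT was the lowest group, and K262Q replicate 3 fell below all KO samples. The rise of Scap over WT was 1.19-fold (0.26 ± 0.06 SE, n = 3, limma adjusted p = 0.0442), a call kept in 2 of 9 other settings and in 2 of 9 fits with 1 library left out.

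Insig1, which retains SCAP in the endoplasmic reticulum and is itself an SREBP target, was at 27.7, 28.5 and 27.9 FPKM in WT, 31.4, 32.3 and 31.5 in K262Q and 28.7, 31.0 and 25.4 in KO. The K262Q samples were highest and KO was the more spread group. The difference from WT was 0.17 ± 0.07 (SE, n = 3, limma adjusted p = 0.143). With upper-quartile scaling it was 0.11 (limma adjusted p = 0.300), and with median-of-ratios scaling 0.14 (adjusted p = 0.202). Insig1 was called in 1 of 9 other settings and in 1 of 9 fits with 1 library left out. Insig2, its paralogue, was at 28.4, 35.7 and 43.4 FPKM in WT, 45.3, 44.8 and 34.0 in K262Q and 46.2, 36.3 and 63.1 in KO. It varied more between samples of a group than the other 3 regulators, and all its groups overlapped (0.21 ± 0.23 SE, n = 3, limma adjusted p = 0.589). The difference of Insig2 ran from 0.06 without WT replicate 1 to 0.36 without WT replicate 3.

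Among 4 genes of sterol transport and storage only Stard4 passed. Stard4 encodes a soluble sterol carrier and is a known SREBP2 target. It was at 18.7, 19.5 and 19.9 FPKM in WT, 24.6, 26.8 and 28.4 in K262Q and 21.99, 21.9 and 19.1 in KO. The K262Q samples stood above the rest, and KO and WT overlapped. The rise over WT was 1.35-fold (0.44 ± 0.07 SE, n = 3, limma adjusted p = 0.0204).

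The lysosomal cholesterol exporter Npc1 was at 9.40, 8.65 and 9.86 FPKM in WT, 8.05, 8.08 and 7.46 in K262Q and 8.76, 8.28 and 8.85 in KO. Here the K262Q samples were the lowest of all 9. The difference of -0.22 ± 0.06 from WT did not pass (SE, n = 3, limma adjusted p = 0.0645). It passed with upper-quartile and with median-of-ratios scaling, with a limma adjusted p of 0.0402 as the lowest of all settings. Npc1 shares exon sequence with Rmc1, a gene on the opposite strand at 25.1 FPKM on average. The difference of Rmc1 was 0.07 ± 0.08 (SE, limma adjusted p = 0.61). Npc2, the soluble partner of Npc1, differed by -0.03 ± 0.07 (SE, n = 3, limma adjusted p = 0.784). Soat1, which esterifies cholesterol for storage, differed by 0.08 ± 0.11 (SE, n = 3, limma adjusted p = 0.66). For Npc2 and for Soat1 the WT and K262Q samples overlapped.

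Of the 3 LXR and efflux genes tested 1 fell and 0 rose in K262Q against WT, with a median difference of -0.25, which is the value of Nr1h2. Abca1, which loads cholesterol and phospholipid onto apolipoproteins, was at 8.003, 8.78 and 8.27 FPKM in WT, 5.78, 5.78 and 5.81 in K262Q and 8.72, 8.53 and 8.02 in KO. The 3 K262Q samples were nearly equal and below all 6 others, while WT and KO overlapped. Abca1 fell 1.38-fold from WT to K262Q (-0.46 ± 0.05 SE, n = 3, limma adjusted p = 0.0137). The fall was called in each of 9 other settings and in 7 of 9 fits with 1 library left out. It missed the threshold without K262Q replicate 2 (adjusted p = 0.0592) and without K262Q replicate 3 (adjusted p = 0.0563), with the difference at -0.46 in each.

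Nr1h2, which encodes LXR beta, was at 77.5, 79.6 and 100.5 FPKM in WT, 75.0, 69.9 and 70.1 in K262Q and 93.0, 100.1 and 83.0 in KO. The K262Q samples were the 3 lowest, and WT replicate 3 stood well above its companions. The difference from WT was -0.25 ± 0.11 (SE, n = 3, limma adjusted p = 0.185), and -0.13 without WT replicate 3 (adjusted p = 0.359). Mylip was at 9.83, 9.69 and 8.68 FPKM in WT, 8.97, 9.25 and 9.57 in K262Q and 9.73, 9.36 and 8.32 in KO. All 3 groups of Mylip overlapped, with a difference of -0.02 ± 0.07 (SE, n = 3, limma adjusted p = 0.91). Abcg1, the exporter to lipoprotein particles, was at 0.128, 0.159 and 0.0725 FPKM in WT, 0.161, 0.300 and 0.210 in K262Q and 0.147, 0.164 and 0.188 in KO. The 3 K262Q samples of Abcg1 were above its 3 WT samples, with a ratio of means of 1.87, but by only 0.161 against 0.159 FPKM at the closest. These levels of Abcg1 are too low for the test and rest on few fragments.

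The upstream sequence of Abca1 is shown as that of the only member that fell. It is the 250 bases before the RefSeq start at chr4:53159896-53160145 of GRCm38.p6, on the minus strand, 5′ to 3′. It has no capitals because neither CCAAT nor the sterol response element core was found in it on either strand. The windows of Acat2 and Scap, which rose, held neither of them as well.
Abca1: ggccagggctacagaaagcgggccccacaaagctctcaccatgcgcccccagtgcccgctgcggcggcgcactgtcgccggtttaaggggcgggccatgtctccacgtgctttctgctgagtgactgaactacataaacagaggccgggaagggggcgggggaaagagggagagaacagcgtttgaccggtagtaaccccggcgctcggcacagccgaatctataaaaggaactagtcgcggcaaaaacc

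RefSeq windows of 300 bases, 250 before and 50 after each start, were found for 24 of the 30 members, 30 windows in all. Stard4, Sqle, Npc1, Fdft1, Fdps and Abcg1 had none in the table. The NF-Y box CCAAT, on either strand, was in a window of 14 of 15 synthesis enzymes, Acat2 being the exception, and of 20 of 24 members. It was in 41.1% of the 27025 genes with a window and in 43.9% of those that were tested. The Sp1 box GGGCGG, on either strand, was in 14 of 15 synthesis enzymes and 22 of 24 members, against 38.2% of all genes and 71.4% of tested genes. The sterol response element core TCACNCCAC was found for Hmgcs1 only, against 1.44% of all genes. A direct repeat of AGGTCA with a gap of 4 bases, after the consensus bound by LXR, was searched with at most 1 mismatch a copy. It was in 0 of 24 members and 2.02% of all genes. Repeats with more mismatches were not searched, so the 0 does not show that Abca1 or another member lacks an LXR element. None of the motifs overlaps another by its letters in the windows shown, and a match or its absence describes these letters in these windows only.

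**Figure D4:**
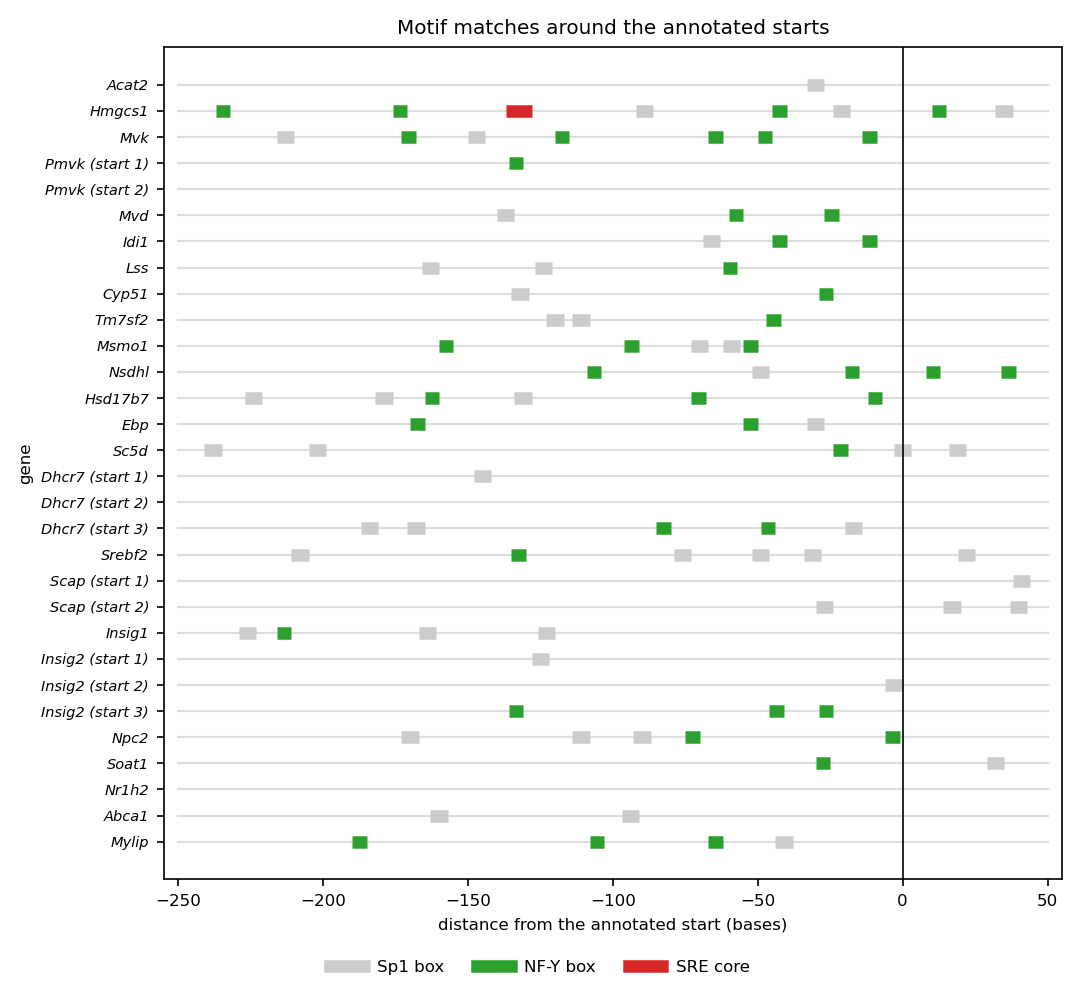
Position of each NF-Y, Sp1 and sterol response element match in the windows of the members with a window, in bases from the RefSeq start, with 1 row per window. NF-Y boxes appear in 14 of 15 synthesis enzymes, and the only sterol response element core is that of Hmgcs1 at -137.

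Restoring wild-type Pd-l1 was compared with the control vector, the question being whether Pd-l1 itself alters these genes. None of the 28 members passed in either direction (limma, Benjamini-Hochberg over 12212 genes), and over all genes 0.0491% were called higher and 0.0328% lower. At an unadjusted p under 0.05, 0 members were higher and 1 was lower, Scap, against 5.62% of all genes in either direction. Scap was 30.3 ± 0.461 FPKM in WT and 34.2 ± 0.493 in KO (SD, n = 3, difference -0.17 ± 0.06 SE, limma adjusted p = 0.854). Scap and Msmo1 were the 2 members whose groups did not overlap, both with WT lower, against 6.48% of all genes in that direction and 2.75% in the other. Msmo1 was at 162 ± 11.4 FPKM in WT and 175 ± 3.27 in KO (SD, n = 3). The median difference of the members was -0.07, against -0.02 for all genes. Without KO replicate 2 the median of the members was 0.00.

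K262Q was also compared with the control vector. These values share the K262Q samples with the comparison to WT, so that they are no independent check of it. Acat2 rose 1.42-fold (0.51 ± 0.08 SE, n = 3, limma adjusted p = 0.0431) and Abca1 fell 1.39-fold (-0.47 ± 0.05 SE, n = 3, limma adjusted p = 0.0207). No other of the 28 members passed, over all genes 0.721% being called higher and 0.54% lower. The 3 K262Q samples were above the 3 KO samples for 14 of 17 synthesis enzymes and 17 of 28 members, against 15% of all genes, and below them for 3 members, against 11.9%. Hmgcs1 differed by 0.59 ± 0.12 (SE, n = 3, limma adjusted p = 0.0597), Hsd17b7 by 0.58 ± 0.13 (adjusted p = 0.0633) and Nsdhl by 0.45 ± 0.10 (adjusted p = 0.0658). Mvk differed by 0.45 ± 0.08 (limma adjusted p = 0.0541), Fdft1 by 0.40 ± 0.08 (adjusted p = 0.0568) and Stard4 by 0.33 ± 0.07 (adjusted p = 0.065). Nr1h2 differed by -0.35 ± 0.11 with groups that did not overlap (SE, n = 3, limma adjusted p = 0.123). The median difference was 0.33 for the synthesis enzymes and 0.25 for the members, against 0.01 for all genes. The call of Acat2 was kept in 1 of 9 fits with 1 library left out, that without KO replicate 2, and that of Abca1 in 5 of 9. Abca1 had an adjusted p of 0.0883 without KO replicate 1, and of 0.0646, 0.0669 and 0.0936 without K262Q replicates 1, 2 and 3. In the 9 other settings the call was kept 5 times for Acat2 and 7 times for Abca1. With only the 2 groups compared neither was called, with an adjusted p of 0.119 for Acat2 and 0.0996 for Abca1.

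KO replicate 2 stood apart within its group in the synthesis enzymes. It was the highest KO sample for 17 of 17 of them. The median deviation of the 17 enzymes from their means over all libraries was 0.06 there, against -0.15 and -0.18 in the other KO samples, -0.17, -0.13 and -0.13 in WT and 0.22, 0.22 and 0.26 in K262Q. The median deviation of all genes in KO replicate 2 was 0.01. Without KO replicate 2, 12 members rose and 1 fell in K262Q against KO, with 5.58% of all genes called higher and 3.56% lower. As a description, the mean correlation of deviations from group means between pairs of synthesis enzymes was 0.389 over the 9 libraries, against 0.0173 for all genes, and it was 0.0401 against 0.0207 without KO replicate 2. The enzymes share libraries, and the higher value rests on that 1 sample.

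**Figure D5:**
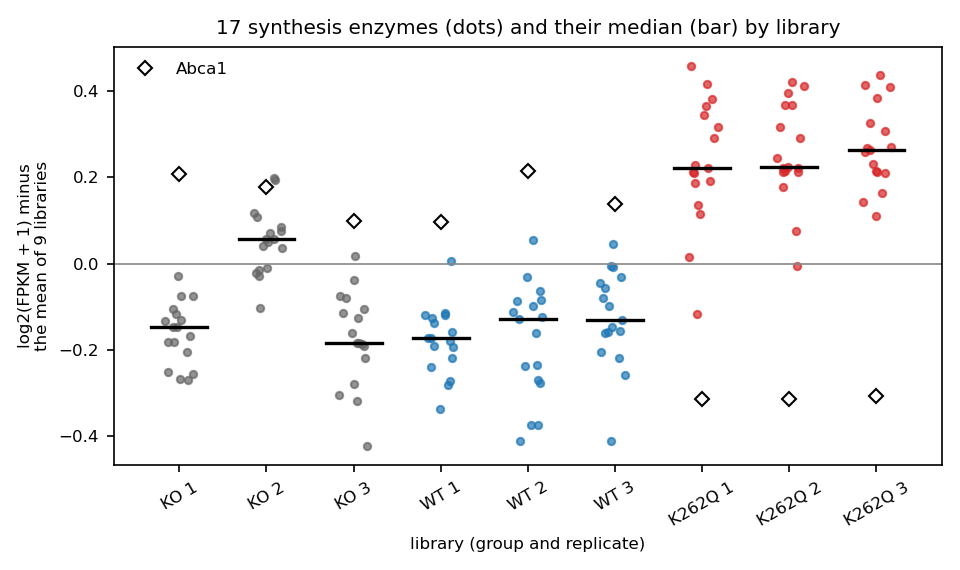
Deviation of each of the 17 synthesis enzymes (dots), their median (bars) and Abca1 (diamonds) from the gene's mean over all libraries, on the log2(FPKM + 1) scale, by library. KO replicate 2 has a median of 0.06 and lies between the other 5 control and WT libraries, at -0.18 to -0.13, and the K262Q libraries, at 0.22 to 0.26.

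Other genes of the pathway were taken from 5 lists by role, also chosen with earlier results of these data known. Of their 43 genes 39 were tested, and in K262Q against WT 5 rose and 1 fell (6.35% and 3.02% of all genes), with a median difference of 0.10 against 0.03 for all genes. For precursor supply and accessory enzymes 2 of 9 rose. Cyb5b, a cytochrome b5 of the outer mitochondrial membrane, rose from 73.8 ± 3.49 to 90.9 ± 2.81 FPKM (SD, n = 3, 1.23-fold, limma adjusted p = 0.0299), and Tmem97, a sterol-binding membrane protein, from 25.3 ± 1.19 to 31.7 ± 0.328 FPKM (SD, n = 3, 1.24-fold, limma adjusted p = 0.0369). In SREBP cleavage and turnover 1 of 8 rose, Mbtps2, the site-2 protease that frees SREBP from the membrane, from 23.3 ± 0.557 to 29.9 ± 2.67 FPKM (SD, n = 3, 1.27-fold, limma adjusted p = 0.0443). In the isoprenoid branches 1 of 8 rose, Pdss1, which makes the side chain of ubiquinone, from 23.1 ± 1.04 to 28.5 ± 1.33 FPKM (SD, n = 3, 1.23-fold, limma adjusted p = 0.0206).

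Of 10 further sterol transport proteins 1 rose and 1 fell. Lrp8, a lipoprotein receptor family member, rose from 15.2 ± 0.874 to 19.8 ± 0.463 FPKM (SD, n = 3, 1.29-fold, limma adjusted p = 0.0427). Osbpl9, an oxysterol-binding family member, fell from 30.004 ± 1.45 to 24.0 ± 1.93 FPKM (SD, n = 3, 1.24-fold, limma adjusted p = 0.0396). Of 8 LXR partners and further LXR targets 4 were tested, 3 of them higher in K262Q than in WT, and 0 passed. The median difference of the 4 was 0.15. The smallest adjusted p of the 4 was that of Rxrb, the retinoid X receptor beta, at 0.147 by limma (0.10 ± 0.04 SE, n = 3). Nr1h3, which encodes LXR alpha, Abcg4, Smpdl3a and Ch25h were under 1 FPKM. In WT against KO and in K262Q against KO 0 of the 39 passed by limma. At an unadjusted p under 0.05 these were 1 higher and 2 lower in the first of these comparisons and 7 higher and 1 lower in the second. Of all 12212 genes tested, 200 were higher and 486 lower at that threshold in the first. In the second, 1527 of the 12212 were higher and 1154 lower.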

How the data were processed

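Per the labels, total RNA of 9 CT26 samples was extracted with Trizol and sequenced. Per the submitters' processing notes, STAR 2.5.4a, Cufflinks 2.2.1, Cuffdiff and the mm10 build were used. The deposited table holds 1 value per gene and sample, read as FPKM, and no read counts. Whether reads were counted by strand is not given in the sources used here. Depth was worked out from how far apart the smallest values of a library lie.

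Differences were tested in R 4.3.3 with limma 3.58.1, using lmFit, contrasts.fit and eBayes with a trend, after taking log2(FPKM + 1). All 9 samples entered 1 model of 3 groups. Genes averaging 1 FPKM or more, 12212 in number, were tested on both sides, adjusted by Benjamini-Hochberg and called at 0.05. The procedure was tested on simulated data. An exact permutation test of 3 against 3 cannot go below p = 0.1. Fold changes carry an SE and FPKM an SD. The members and lists were chosen with earlier results of these data known. All members may be named. Those with a value in every sample were, per role, up to 3 called members by size with groups that do not overlap, plus the genes of SREBP2 and of LXR. Npc1 was added after its values were seen. In other lists, up to 3 called members were named by lowest adjusted p, or, with none called, the single lowest. The alternatives changed the pseudocount (0.1), the filter (none, or 5 FPKM on average), the scaling (upper quartile or median of ratios), the samples fitted (the compared groups, or each library left out), the trend, the block by replicate number and the fold (1.2 or more).

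Positions come from GENCODE on GRCm38 and promoter windows from RefSeq on GRCm38.p6. Copies were found with blastn 2.17.0 (at least 95% identity over 200 nt), and 6 members had one. Tables and figures used Python 3.11.15, pandas 2.3.3, numpy 2.4.6 and matplotlib 3.10.9.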

Additional observations from a re-analysis of the deposited data

How the results depend on the processing

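In K262Q against WT, 14 members were called higher and 1 lower. The higher count was 4 with no filter on low values, with 0.972% of all genes called higher. It ran from 0 to 16 over the fits with 1 library left out, with 0.131% to 8.75% of all genes. The lower count was 2 with upper-quartile scaling and 2 with median-of-ratios scaling, with 4.32% and 3.79% of all genes called lower. It was 0 to 1 with 1 library left out, with 0.106% to 4.32% of all genes. Both scalings added Npc1 to the falls and lost Tm7sf2 and Scap. What moved these counts was not tested.

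In K262Q against KO, 1 was called higher and 1 lower. The higher count was 0 with no filter, 3 with a mean of at least 5 FPKM, 3 with upper-quartile scaling, 3 with median-of-ratios scaling, 0 with only the 2 groups compared and 0 with no trend, and ran from 0 to 12 with 1 library left out, 12 being without KO replicate 2. The lower count was 0 with only the 2 groups compared (0.0246% of all genes). It was 0 to 1 with 1 library left out, with 0.0164% to 3.56% of all genes called lower. In WT against KO the count was 0 in both directions in all 18 alternatives.

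With the replicate number as a block, 10 members were called higher and 1 lower in K262Q against WT, and 0 and 0 in K262Q against KO. Over all genes 4.57% were called higher and 1.89% lower in the first, and 0.0246% and 0.0164% in the second. Deviations of samples with the same number correlated by -0.036 to 0.078, and those with other numbers by -0.074 to 0.051. These ranges overlap. Whether samples with the same number shared a batch cannot be told from such small correlations.

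No difference of a member changed from called in one direction to the opposite. For single members, pooled over all comparisons, 1359 of the alternative values kept their side of the threshold, 27 gained a call and 120 lost one. The 1359 include values of members not called in the main fit, among them all those of WT against KO. The 120 losses come only from members called in the main fit, 15 in K262Q against WT and 2 in K262Q against KO. The 1359 are therefore no measure of how stable the calls were. At the implied depth of 17.72 to 18.96 M fragments, a transcript of 2000 nt at 1 FPKM has a counting SD of 16.2% to 16.8%, and Idi1 and Abcg1 are near or below that level.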
